A study of Homo sapiens with 12 samples.

Results

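The 48 genes described here lie on chromosome 20, from NCOA5 to PMEPA1, in the part of 20q13 that is known to be gained in the breast cancer cell line BT474. They were chosen by name, as rows of the expression table, and all 48 were found among its 26485 genes. Their interval runs over 11.7 Mb (chr20:46060991-57711472, GRCh38.p14, the assembly also called hg38). A total of 39 members reached 1 normalised read count in at least 3 libraries and were tested, and 9 did not. The name of the region describes DNA, whereas all values below are RNA. Copy number was not measured in these libraries, and its part in the results was not tested.

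BT474 is an established HER2+ breast cancer line, and lapatinib inhibits the kinases HER2 and EGFR. The study followed these wild-type (WT) cells through lapatinib at 1 µM and sequenced mRNA from 4 groups with 3 libraries each. Control is day 0, the drug-tolerant persister cells (DTP) are day 9, the drug-tolerant expanding persister cells (DTEP) were taken at month 6, and LR, the cells with long-term resistance, at month 9. The treatment label of the Control libraries also reads lapatinib, and they were taken as the day 0 group because their titles call them Control. All groups derive from 1 cell line, the study speaks of the LR cells as clones, and it calls its replicates technical at one point and parallel plates at another. SDs (n = 3 libraries throughout) and p-values therefore measure the spread between libraries, which may be technical.

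Gain of 20q13 recurs in breast cancer, and several genes of the region took their names from it or became known through it, among them the BCAS genes (breast carcinoma amplified sequence) and ZNF217. Amplified genes usually make RNA roughly in step with their copy number, although a promoter that is not active in a tissue stays silent when it is copied. The region holds genes of unrelated function, including steroid receptor coactivators, RNA-processing factors, a nuclear export receptor, a phosphatase of receptor signalling and a bone morphogenetic protein.

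Depth was 16383363 to 25030482 assigned reads per library, so a single read was worth 0.0412 to 0.0576 normalised read counts. All 7 luminal epithelial markers (EPCAM, KRT8, KRT18, KRT19, CDH1, GATA3 and ERBB2) had reads in every library. Their sum was 10520.3 to 11263 normalised read counts over the Control libraries, 12878 to 15300 over those of DTP and 3991 to 5450.4 over those of LR. ERBB2 had the highest mean of the 7 in every group, and the markers did not move as one. CDH1, which encodes E-cadherin, averaged 1125, 743, 109 and 75.1 in Control, DTP, DTEP and LR. GATA3 rose over the same groups, with means of 190, 454, 1159 and 1251, and EPCAM averaged 205, 143, 330 and 246. KRT8, KRT18 and KRT19 averaged more in DTP and less in LR than in Control. Defining markers of leukocytes (CD3E, PTPRC) and of basal epithelium (KRT5, KRT14) and the endothelial marker PECAM1 were at or near 0, and those of fibroblasts were divided, with COL1A2 and PDGFRB near 0 and VIM and COL1A1 above it. TP63, a further basal marker, averaged 4.94 normalised read counts in Control and 42.6 in LR. VWF, a further endothelial marker, averaged 8.09, 2.10, 0.211 and 0.118 in the same order of groups as CDH1. The part of these markers in the members' values was not tested. ERBB2, which encodes HER2, averaged 6526 normalised read counts at day 0, 8545 in DTP, 1627 in DTEP and 1774 in LR. The proliferation marker MKI67 averaged 224, 2.71, 563 and 292. TOP2A, PCNA, CCNB1, CDK1 and RRM2, the other proliferation genes read, were also low in DTP. Unlike MKI67, all of these averaged less in LR than in Control (419 and 159 in Control and LR for TOP2A, 281 and 108 for PCNA, 113 and 72.4 for CCNB1, 137 and 50.3 for CDK1, 279 and 107 for RRM2). The 3 DTEP libraries were less alike than those of any other group. DTEP replicate 3 correlated with the LR libraries at r = 0.971 to 0.986 across genes and with the other DTEP libraries at 0.934 to 0.962. Several counts and calls that change without it are therefore also given below without it. The labels name no batch or date.

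In Control cells the RNA of the tested members was at a high level in the median. Per kilobase of canonical transcript, the median Control level was 56.8 normalised read counts for the 39 members and 9.21 for the 12663 tested genes with a known length. The corresponding LR medians were 18.3 and 9.57. For the 16 unlisted genes of the interval with a known length the Control median was 2.35, so the high level belongs to the list. Together the listed genes took 1.18% to 1.20% of all normalised reads in the Control libraries and 0.934% to 1.06% in DTP. The share was 0.357% to 0.402% in DTEP and 0.384% to 0.406% in LR, so the DTEP and LR libraries all lay below the DTP and Control libraries. A level per gene cannot tell fewer cells of a type from less RNA per cell.

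From Control to DTP the members moved in both directions. By limma, 7 of the 39 passed the adjusted p of 0.05 as higher, against 25.2% of all 13794 genes tested, and 12 as lower, against 28.8%. With the study's further threshold of an absolute log2 change above 2, no member was higher (1.01% of all genes) and BMP7 alone was lower (3.9%). Higher members numbered 4 when Control replicate 2 was left out, 12 when DTEP replicate 1 was and 11 when DTEP replicate 3 was, and 15 with the 6 libraries compared alone. Here and below, shares of all genes are those of the fit on all 12 libraries. They do not apply to fits with libraries left out. The median log2 change of the members was -0.17, against -0.01 for all genes.

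From DTP to DTEP most of the segment fell. As lower, 31 of the 39 members passed, against 32.6% of all genes, while 2 passed as higher, against 35.7%. Past the log2 threshold were 10 lower members (7.02% of all genes) and no higher one (8.13%). The higher members were ADNP and TP53RK, and 1 to 4 passed as higher when a library was left out (1 without DTP replicate 1 or 2 or DTEP replicate 2, 4 without DTP replicate 3 or DTEP replicate 1). Without DTEP replicate 3, 31 passed as lower and 9 were past the log2 threshold, and without DTEP replicates 1 and 2 these were 30 and 15. The 10 past the threshold were SULF2, PREX1, BCAS4, ATP9A, BCAS1, PFDN4, DOK5, BMP7, RAE1 and RBM38. The median log2 change was -1.31 for the members and 0.08 for all genes.

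From DTEP to LR few members changed further. Only ZNFX1 passed as higher (3.04% of all genes), and SULF2, CSE1L, ATP9A, PFDN4 and RBM38 passed as lower (4.31%). ATP9A and SULF2 were also past the log2 threshold (0.457% of all genes), and no member was past it as higher (0.225%). These counts depend on which DTEP libraries enter. Without DTEP replicate 3, 9 members passed as higher and 15 as lower, and without DTEP replicate 2 only 1 passed as lower. The shares of all genes above belong to the fit on all 12 libraries and not to these fits. With the spread estimated from the 6 libraries compared alone, no member passed in either direction. The median log2 change was -0.16 for the members and -0.07 for all genes.

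Set against Control, the endpoints were low. In DTEP, 31 members passed as lower (28.7% of all genes) and 1 as higher (29.5%), with 13 lower members (6.2%) and no higher one (4.43%) past the log2 threshold. In LR, 28 passed as lower (32.6%) and 1, TP53RK, as higher (30.2%), with 14 lower members (7.8%) and none higher (5.03%) past it. The median log2 changes from Control were -1.40 in DTEP and -1.47 in LR, against 0.02 and -0.03 for all genes. At a log2 threshold of 1 in place of 2, 3 members were higher (9.24% of all genes) and 7 lower (15.8%) in DTP, 0 higher (22.4%) and 25 lower (19.5%) from DTP to DTEP, and 0 higher (1.45%) and 4 lower (2.5%) from DTEP to LR. Set against Control at that threshold, 26 were lower in DTEP (16.4%) and 25 in LR (19.6%), and 0 were higher in either (15.1% and 16.9%). The comparisons share the Control or the DTP libraries, so they are not independent of each other.

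**Figure D1:**
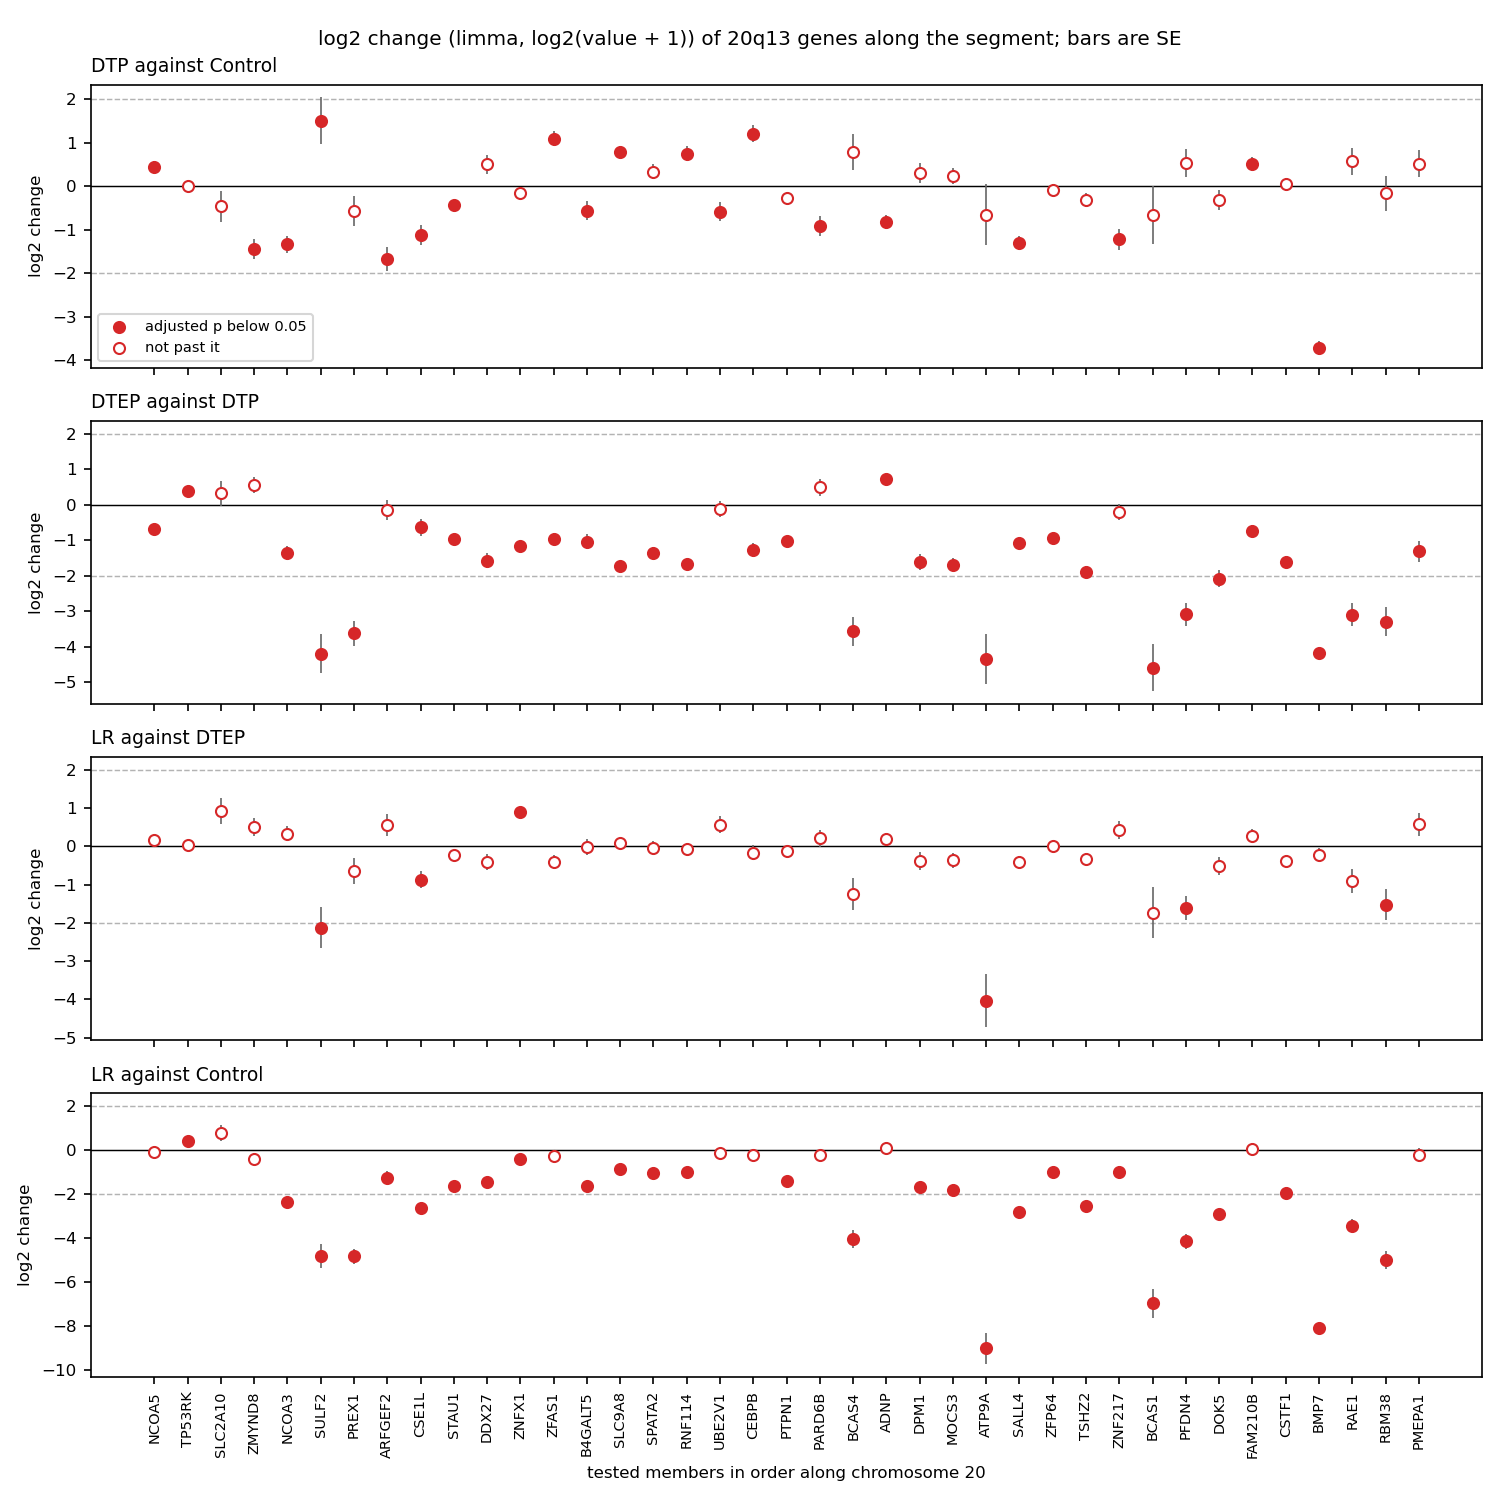
The log2 change of each of the 39 tested members (points, bars are the SE of the limma fit) is drawn in order along chromosome 20, with a panel per comparison and dashed lines at a log2 change of 2 and -2. In DTEP against DTP 31 filled points lie below 0, and in LR against Control the lowest are ATP9A at -9.02, BMP7 at -8.12 and BCAS1 at -6.97.

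Read along the segment, the fall was neither even nor confined to a stretch. Cutting the 39 tested members into 3 consecutive blocks of 13, the median log2 change from DTP to DTEP was -0.96 from NCOA5 to ZFAS1, -1.36 from B4GALT5 to ATP9A and -1.90 from SALL4 to PMEPA1. For LR against Control the medians of the same blocks were -1.25, -1.06 and -2.80. Members called lower in LR against Control numbered 4, 2 and 8 of the 13 in each block, against 7.8% of all genes. Adjacent tested members could lie far apart. ATP9A ended at 0.0561% of its Control level in LR and its neighbour MOCS3 at 26.7%, and BMP7 ended at 0.00502% beside CSTF1 at 25.96%. Over the 38 pairs of neighbours, the median absolute difference of the log2 changes in LR against Control was 1.45, and over all 741 pairs of members it was 1.74. For DTEP against DTP the values were 1.04 and 1.41, and for DTP against Control 0.90 and 0.86.

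The genes inside the interval that are not on the list also fell from DTP to DTEP in their median. Of these 51 genes 18 were tested, and the median of their log2 changes was 0.44 from Control to DTP, -1.43 from DTP to DTEP and -0.90 from Control to LR, so that in DTP it was above 0 and that of the members (-0.17) below. Of the 18, 8 passed as higher and 4 as lower from Control to DTP (25.2% and 28.8% of all genes), 2 and 14 from DTP to DTEP (35.7% and 32.6%) and 0 and 15 from Control to LR (30.2% and 32.6%). Outside the interval the medians from DTP to DTEP and from Control to LR were nearer to those of all genes. For the 252 tested genes of chromosome 20 before NCOA5 they were 0.22, -0.12 and -0.06 in the same 3 comparisons, and for the 61 genes after PMEPA1 they were 0.07, -0.43 and -0.28. From DTP to DTEP, 40.1% of the former and 49.2% of the latter passed as lower (32.6% of all genes), and 30.6% and 24.6% as higher (35.7%). From Control to LR, 35.3% and 39.3% passed as lower (32.6%), and 32.1% and 24.6% as higher (30.2%). The difference between inside and outside was not tested, since genes are not replicates.

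Chromosome 17 holds regions that are known as gained in HER2+ lines as well, and they were set beside 20q13. From MED1 to TOP2A, the ERBB2 neighbourhood at 17q12-q21 (27 tested genes), the median log2 change was 0.17 from Control to DTP, -2.40 from DTP to DTEP and -2.66 from Control to LR. From RAD51C to TLK2 at 17q23 (29 tested genes) the medians were -0.28, -0.82 and -1.67. Their median Control levels per kilobase were 40.6 and 27.5 normalised read counts, against 56.8 for the 20q13 members 11.7 and 12.6 for chromosome 20 before and after the interval, and 2.35 for the 16 unlisted genes of the interval with a known length.

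**Figure D2:**
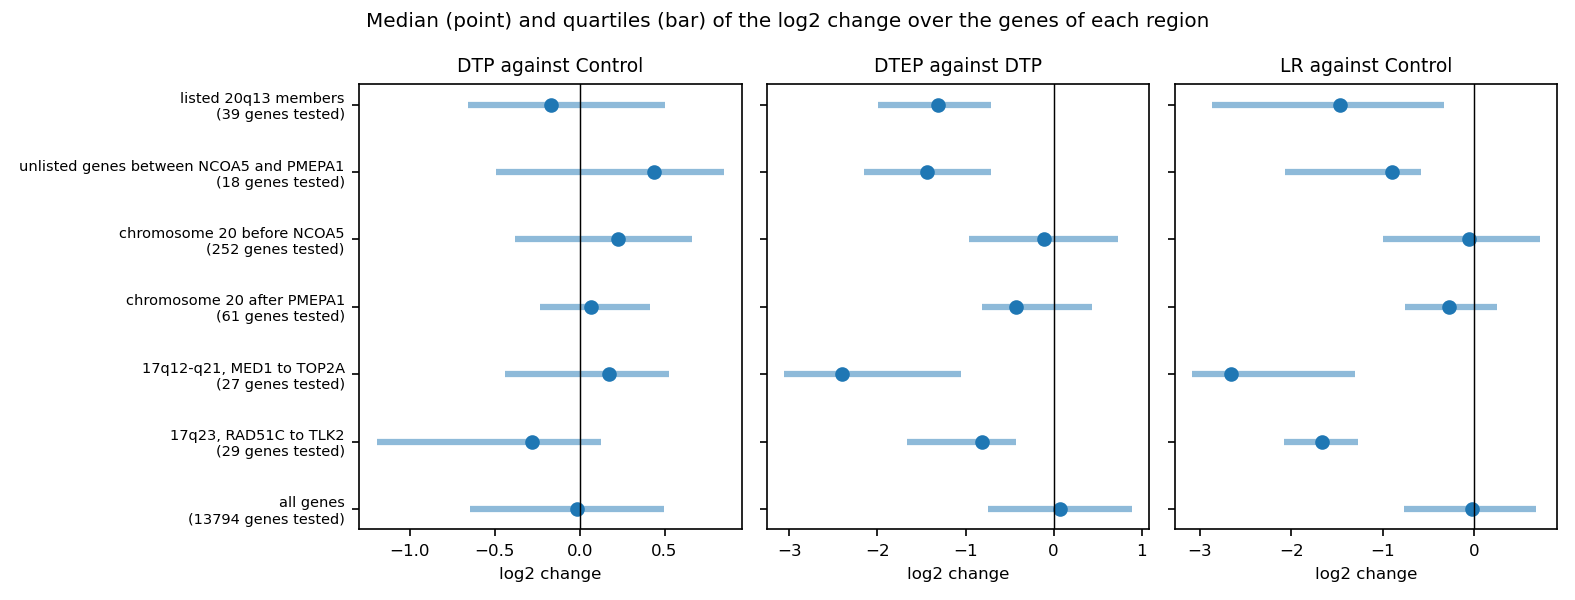
Each row gives the median (point) and the quartiles (bar) of the log2 change over the tested genes of a region, in 3 comparisons. In DTP against Control the medians lie between -0.28 and 0.44, while in LR against Control the members (-1.47), the unlisted genes of the interval (-0.90) and both regions of chromosome 17 (-2.66 and -1.67) lie below chromosome 20 outside the interval.

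At the end of the treatment the RNA levels of the members ran from almost none to above the Control mean. The LR mean was below 1% of the Control mean for 8 members (SULF2, BCAS4, ATP9A, SALL4, TSHZ2, BCAS1, DOK5 and BMP7) and from 1% to 10% for 4 (PREX1, PFDN4, RAE1 and RBM38). It was from 10% to 50% for 13 members, from 50% to 100% for 10, and above 100% for TP53RK, SLC2A10, ADNP and FAM210B. Of these last, only TP53RK passed as higher than Control, with a call near the threshold. Among the 10693 genes with a Control mean of at least 5, the same classes held 3.07%, 2.81%, 14.3%, 32.0% and 47.8%. Of the 38 members with such a Control mean, they held 7, 4, 13, 10 and 4.

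**Figure D3:**
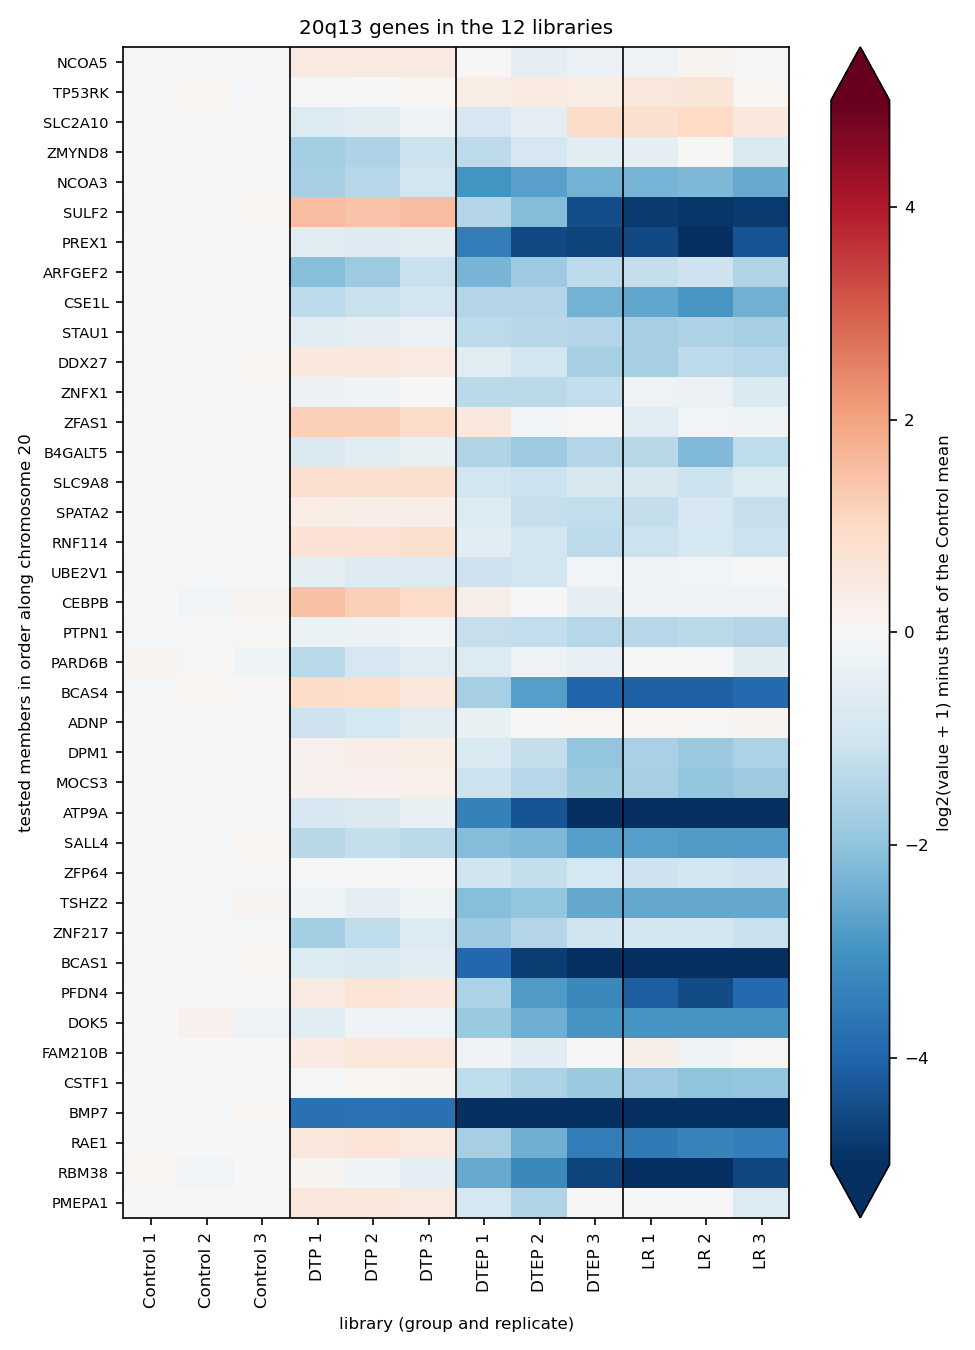
Each cell is the log2(value + 1) of a tested member in a library minus that of its Control mean, with members in order along chromosome 20 and the 12 libraries in columns (red higher, blue lower). Dark blue rows such as BMP7, ATP9A, BCAS1, SULF2 and PREX1 stand between pale rows in the DTEP and LR columns, and DTEP replicate 3 is darker than the other DTEP libraries in several of them.

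Among the 12 transcription and chromatin genes, 10 were tested and the median of their log2 changes was -0.57 from Control to DTP, -1.02 from DTP to DTEP and -0.70 from Control to LR. In DTP, 5 were lower and 2 higher, against 28.8% and 25.2% of all genes. From DTP to DTEP 7 were lower and 1 higher, against 32.6% and 35.7%. NCOA3 (Entrez 8202, chr20:47501887-47656872), a coactivator of steroid receptors also called AIB1, had 1341, 1350.4 and 1330.2 in Control, 425, 501 and 699 in DTP, 167, 204 and 257 in DTEP and 267, 284 and 230.2 in LR normalised read counts. Every step down from Control to DTP and from DTP to DTEP separated the groups without overlap, and the LR libraries lay within or just above the DTEP range. It fell in DTP (log2 change -1.34 with an SE of 0.20 and a limma adjusted p of 0.000173) and again in DTEP (log2 change -1.36 with an SE of 0.20 and a limma adjusted p of 6.31e-05). LR kept 19.4% of the Control mean.

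ZNF217 (Entrez 7764, chr20:53567071-53597702), a zinc finger repressor for which the amplicon is often named, had 399, 405 and 385 in Control, 123, 163 and 244 in DTP, 113, 144 and 197 in DTEP and 211, 206 and 182 in LR normalised read counts. It fell from Control to DTP (log2 change -1.22 with an SE of 0.24 and a limma adjusted p of 0.00111). After that its groups overlapped, and the DTP libraries ran over a wider range than those of DTEP. The change from DTP to DTEP was -0.20 (limma adjusted p 0.463), and its sign turned without DTP replicate 3 (0.0573) and without DTEP replicates 1 and 2 (0.22). LR stood at 50.5% of Control (log2 change -0.99 with an SE of 0.24 and a limma adjusted p of 0.00309).

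ZMYND8 (Entrez 23613, chr20:47209214-47356699), a reader of histone marks, had 403, 393 and 406 in Control, 122, 138 and 187 in DTP, 162, 225 and 274 in DTEP and 284, 418 and 241 in LR normalised read counts. The DTP libraries lay below those of Control and overlapped DTEP, LR replicate 2 was above every Control library, and of the successive transitions only the fall in DTP passed (log2 change -1.45 with an SE of 0.23 and a limma adjusted p of 0.00034). ADNP (Entrez 23394, chr20:50888918-50931437), a homeobox protein of chromatin complexes, had 368, 378 and 365 in Control, 180.3, 202 and 252 in DTP, 285, 366 and 392 in DTEP and 401, 383 and 406 in LR normalised read counts. Each DTP library of ADNP was below each library of the other groups, and the LR libraries were above those of Control. ADNP fell in DTP (log2 change -0.82 with an SE of 0.15 and a limma adjusted p of 0.000809) and rose from DTP to DTEP (log2 change 0.72 with an SE of 0.15 and a limma adjusted p of 0.00119), 1 of 2 members to do so. Its LR level did not pass against Control (log2 change 0.10, limma adjusted p 0.591).

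CEBPB (Entrez 1051, chr20:50190583-50192690), a leucine zipper transcription factor, had 20.6, 18.7 and 22.5 in Control, 57.8, 48.4 and 41.1 in DTP, 25.3, 19.4 and 14.9 in DTEP and 16.98, 17.8 and 17.1 in LR normalised read counts. All DTP libraries were above all others. It rose in DTP (log2 change 1.21 with an SE of 0.19 and a limma adjusted p of 0.000324) and fell again in DTEP (log2 change -1.28 with an SE of 0.19 and a limma adjusted p of 9.51e-05). Its span overlaps CEBPB-AS1, which averaged 4.18 normalised read counts in Control and 15.6 in DTP, and the counting, which by default ignores strand, cannot tell the reads of the pair apart where they overlap. SALL4 (Entrez 57167, chr20:51782331-51802521), a zinc finger factor of stem cells, was low from the start, with 5.93, 5.76 and 6.52 in Control, 1.72, 2.12 and 1.79 in DTP, 0.574, 0.494 and 0.0561 in DTEP and 0.0422, 0 and 0 in LR normalised read counts. It fell at each step from Control to DTEP without overlap, with log2 changes of -1.30 and -1.08 (adjusted p by limma 4.29e-05 and 6.10e-05). The LR libraries held 1 read for it in all, and the ratio of Control to LR was 380 (exact 95% interval from 67.7 to 15037, for counting error only).

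ZNFX1 (Entrez 57169, chr20:49245900-49278057), a zinc finger helicase linked to the sensing of viral RNA, had 199, 206 and 211 in Control, 169, 181 and 206 in DTP, 80.9, 80.2 and 86.8 in DTEP and 172, 169 and 124 in LR normalised read counts. The DTEP libraries lay close together and below every library of the other groups. It declined from DTP to DTEP (log2 change -1.15 with an SE of 0.14 and a limma adjusted p of 1.51e-05) and was the only member to rise from DTEP to LR (log2 change 0.89 with an SE of 0.14 and a limma adjusted p of 0.00688). The rise failed with the spread taken from the 6 libraries compared (limma adjusted p 0.266) and without DTEP replicates 1 and 2. TSHZ2, a homeobox zinc finger gene with 4.69, 4.46 and 5.36 normalised read counts in Control, had no read in any LR library and was at least 100.5-fold lower there, against a limit of 3 reads over the group. NCOA5, a nuclear receptor coactivator, and ZFP64, a zinc finger protein, ended at 94.8% and 48.6% of Control.

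All 6 RNA-handling genes were tested, and all 6 passed as lower in DTEP than in DTP, against 31 of the 39 members and 32.6% of all genes, with a median log2 change of -1.59. In DTP against Control their median was 0.27, with 1 higher (25.2% of all genes) and 1 lower (28.8%). RAE1 (Entrez 8480, chr20:57351255-57379202), an mRNA export factor of the nuclear pore, had 604, 611 and 629 in Control, 919.8, 965 and 864 in DTP, 193, 112 and 55.6 in DTEP and 51.7, 59.4 and 57.2 in LR normalised read counts. Its DTP libraries were the highest and its LR libraries the lowest with DTEP replicate 3 among them. It fell from DTP to DTEP (log2 change -3.09 with an SE of 0.32 and a limma adjusted p of 3.65e-06) and stood at 9.12% of Control in LR. The higher DTP values did not pass (log2 change 0.57, limma adjusted p 0.145).

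RBM38 (Entrez 55544, chr20:57391396-57409333), an RNA-binding protein of the p53 network, had 180.3, 156 and 172 in Control, 186, 148 and 125 in DTP, 28.5, 17.2 and 5.89 in DTEP and 3.93, 3.38 and 6.25 in LR normalised read counts. Control and DTP overlapped, and DTEP lay below both with a graded spread of its own. It fell by 3.30 on the log2 scale from DTP to DTEP (SE 0.41, limma adjusted p 1.78e-05) and by 1.52 from DTEP to LR (SE 0.41, limma adjusted p 0.0459). In the latter comparison DTEP replicate 3 lay inside the LR range, and the call failed under 14 of 24 alternatives, every fit without a Control or DTP library among them, with limma adjusted p up to 0.73.

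ZFAS1 (Entrez 441951, chr20:49278178-49289260), a noncoding RNA that hosts small nucleolar RNAs, had 127, 124 and 128 in Control, 287, 293 and 237 in DTP, 185, 115 and 124 in DTEP and 88.5, 116 and 110.1 in LR normalised read counts. It rose in DTP to 215% of Control, without overlap (log2 change 1.09 with an SE of 0.18 and a limma adjusted p of 0.000344), and fell back in DTEP (log2 change -0.97 with an SE of 0.18 and a limma adjusted p of 0.000413). Its LR mean was 82.9% of Control. CSTF1 (Entrez 1477, chr20:56392379-56406362), a subunit of the factor that stimulates cleavage at the ends of nascent mRNA, had 279.8, 289 and 285 in Control, 267, 303 and 311 in DTP, 119, 95.5 and 77.9 in DTEP and 79.5, 69.8 and 72.2 in LR normalised read counts. Control and DTP overlapped, and every DTEP and LR library was below them. The log2 change from Control to DTP was 0.04 (limma adjusted p 0.829) and -1.60 from DTP to DTEP (SE 0.15, limma adjusted p 1.58e-06). STAU1, a binder of double-stranded RNA, and DDX27, an RNA helicase of ribosome assembly, ended at 32.4% and 36.0% of Control.

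Of the 5 genes of transport and trafficking, all tested, ATP9A (Entrez 10079, chr20:51596514-51768390), a P4-type ATPase of endosomes, changed most. It had 707, 704 and 706 in Control, 388, 429.7 and 540.5 in DTP, 67.5, 34.3 and 3.59 in DTEP and 0.253, 0.111 and 0.824 in LR normalised read counts. The Control libraries lay between 704 and 707, the DTP libraries were lower without overlap, and the DTEP libraries ran from 67.5 down to 3.59. The fall from DTP to DTEP passed (log2 change -4.33 with an SE of 0.70 and a limma adjusted p of 0.000157), as did that from DTEP to LR (log2 change -4.03 with an SE of 0.70 and a limma adjusted p of 0.0101). That from Control to DTP did not pass (log2 change -0.65, limma adjusted p 0.457), although these groups did not overlap. The fit shares 1 spread over all groups, and that of ATP9A was wide in DTEP (SD 2.03 on the log2 scale). With single libraries left out, the limma adjusted p for Control to DTP ran from 0.0327 to 0.627. LR held 0.0561% of the Control level. The DTEP to LR call was lost with the 6 libraries compared alone and without DTEP replicate 2 (limma adjusted p 0.266 and 0.0571).

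CSE1L (Entrez 1434, chr20:49046312-49096949), the export receptor that returns importin alpha to the cytoplasm, had 1341, 1343 and 1236 in Control, 524, 600.2 and 675 in DTP, 472, 469.6 and 253 in DTEP and 215, 172 and 246 in LR normalised read counts. Each group mean was below the one before, DTP was separate from Control, and DTEP replicate 3 lay apart from the other DTEP libraries and just above LR replicate 3. The log2 changes were -1.13, -0.64 and -0.87 in the 3 successive transitions (limma adjusted p 0.00148, 0.0259 and 0.0436). The change from DTP to DTEP lost its call without DTEP replicate 3, without DTP replicate 2 or 3 and with the 6 libraries compared alone (limma adjusted p up to 0.087). The last is near the threshold and failed under 14 of 24 alternatives, with adjusted p from 0.000207 to 0.693 (limma, edgeR or DESeq2). LR stood at 16.2% of Control (log2 change -2.64 with an SE of 0.23 and a limma adjusted p of 1.03e-06).

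ARFGEF2 (Entrez 10564, chr20:48921711-49036693), an exchange factor for Arf GTPases at the Golgi, had 647, 652 and 593 in Control, 145, 179 and 294 in DTP, 124, 180.0 and 255 in DTEP and 273, 308 and 219 in LR normalised read counts. It fell in DTP (log2 change -1.67 with an SE of 0.28 and a limma adjusted p of 0.000386), where it was the member with the widest spread (SD 0.52 on the log2 scale). From DTP to DTEP its groups overlapped (log2 change -0.14, limma adjusted p 0.668). That value turned to 0.15 without DTP replicate 3, to 0.12 without DTEP replicate 1 and to 0.37 without DTEP replicates 1 and 2.

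SLC2A10 (Entrez 81031, chr20:46708320-46736347), a member of the glucose transporter family, had 194, 193 and 198 in Control, 120.3, 136 and 171 in DTP, 107, 139 and 369.7 in DTEP and 338, 393 and 283 in LR normalised read counts. DTEP replicate 3 and all LR libraries were above every other library, and DTEP replicates 1 and 2 were in or below the DTP range. No comparison passed, the nearest being LR against Control (log2 change 0.78, limma adjusted p 0.0678), where the groups did not overlap. SLC9A8 (Entrez 23315, chr20:49812828-49892242), a sodium and proton exchanger, had 99.3, 104 and 100.1 in Control, 175, 177 and 176 in DTP, 52.2, 47.2 and 58.2 in DTEP and 57.1, 47.2 and 63.3 in LR normalised read counts. The DTP libraries were close together and above all others. It rose in DTP (log2 change 0.79 with an SE of 0.13 and a limma adjusted p of 0.00035) and fell in DTEP (log2 change -1.73 with an SE of 0.13 and a limma adjusted p of 3.15e-07).

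Signalling ligands and regulators gave 6 tested members of 8. The median of their log2 changes was -0.45 from Control to DTP, -1.70 from DTP to DTEP and -2.16 from Control to LR. BMP7 (Entrez 655, chr20:57168753-57266641), a secreted bone morphogenetic protein, had 276, 269 and 297 in Control, 20.2, 20.8 and 20.3 in DTP, 0.431, 0.0824 and 0.0561 in DTEP and 0.0422, 0 and 0 in LR normalised read counts. It was the only member below 10% of Control by day 9, with DTP at 7.28% of Control, and Control, DTP and DTEP were separate. DTEP replicate 3 and LR replicate 1 held 1 read each, so their values differ by library size alone. It fell in DTP (log2 change -3.72 with an SE of 0.16 and a limma adjusted p of 5.16e-08) and further in DTEP (log2 change -4.19 with an SE of 0.16 and a limma adjusted p of 2.38e-09). The DTEP libraries held 12 reads and the LR libraries 1 read in all. Control exceeded LR by a ratio of 17546 (exact 95% interval from 3149 to 693064, for counting error only). Its antisense neighbour BMP7-AS1 had no read in any library.

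PREX1 (Entrez 57580, chr20:48624252-48888185), an exchange factor that couples receptors to the GTPase Rac, had 1109, 1099 and 1142 in Control, 750.4, 712 and 779.7 in DTP, 101, 47.9 and 43.95 in DTEP and 48.2, 20.6 and 54.9 in LR normalised read counts. DTP was below Control without overlap, and all DTEP and LR libraries were far below both. The fall from DTP to DTEP passed (log2 change -3.62 with an SE of 0.34 and a limma adjusted p of 2.09e-06), while those in DTP and from DTEP to LR did not (limma adjusted p 0.174 and 0.199). LR kept 3.69% of Control. PTPN1 (Entrez 5770, chr20:50510383-50585241), the phosphatase PTP1B that acts on receptor tyrosine kinases, had 241, 249.6 and 259 in Control, 198, 205 and 221 in DTP, 110.4, 105 and 91.7 in DTEP and 92.6, 98.2 and 90.6 in LR normalised read counts. Replicates of PTPN1 were close in each group, and DTEP and LR overlapped below DTP. It fell from DTP to DTEP (log2 change -1.02 with an SE of 0.11 and a limma adjusted p of 5.90e-06) to an LR level of 37.6% of Control.

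DOK5 (Entrez 55816, chr20:54475593-54651169), a docking protein of receptor kinases, had 6.81, 7.83 and 5.36 in Control, 4.28, 5.73 and 5.36 in DTP, 1.10, 0.412 and 0 in DTEP and 0, 0 and 0 in LR normalised read counts. Control and DTP overlapped, and no read was seen in DTEP replicate 3 or in LR. The fall between DTP and DTEP passed (log2 change -2.08 with an SE of 0.23 and a limma adjusted p of 8.29e-06), and LR was at least 138.5-fold below Control, against a limit of 3 reads over the group. PMEPA1 (Entrez 56937, chr20:57648396-57711472), a feedback regulator of transforming growth factor beta signalling, had 278, 286 and 280.1 in Control, 412, 409.8 and 389.8 in DTP, 152, 97.7 and 284 in DTEP and 282, 287 and 174 in LR normalised read counts. DTEP replicate 3 lay within the Control range, while the other DTEP libraries lay below every library of the other groups. PMEPA1 passed as lower in DTEP than in Control although these groups overlapped (log2 change -0.80 with an SE of 0.31 and a limma adjusted p of 0.0412). That call was lost under 15 of 24 alternatives, among them every fit without a Control or a DTP library. The fall from DTP to DTEP passed (log2 change -1.31 with an SE of 0.31 and a limma adjusted p of 0.00223), though not without DTEP replicates 1 and 2 (limma adjusted p 0.079), and LR did not pass against Control (log2 change -0.22, limma adjusted p 0.551). PARD6B, a cell polarity protein, was lower in DTP (log2 change -0.92 with an SE of 0.23 and a limma adjusted p of 0.00498) and stood at 84.9% of Control in LR.

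The 3 ubiquitin-related genes held between 47.1% and 89.4% of their Control level in LR. RNF114 (Entrez 55905, chr20:49936397-49953885), a ubiquitin ligase, had 287, 288 and 292 in Control, 479, 483 and 499.9 in DTP, 198, 149 and 117 in DTEP and 136, 158 and 139 in LR normalised read counts. Every DTP library was above and every DTEP and LR library below the Control libraries. It rose in DTP (log2 change 0.75 with an SE of 0.16 and a limma adjusted p of 0.00225) and fell in DTEP (log2 change -1.68 with an SE of 0.16 and a limma adjusted p of 2.49e-06). SPATA2, an adaptor of the deubiquitinase CYLD, fell from DTP to DTEP by 1.36 on the log2 scale (limma adjusted p 1.60e-05). UBE2V1, a cofactor of the conjugating enzyme UBC13, was listed at 2.11 to 5.61 normalised read counts over the 12 libraries. It overlaps the readthrough gene TMEM189-UBE2V1, which had no read in any library, so its level is uncertain.

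Of 8 enzymes 5 were tested. SULF2 (Entrez 55959, chr20:47657406-47786627), a sulfatase that trims heparan sulfate outside the cell, had 26.2, 27.7 and 30.0 in Control, 82.4, 76.8 and 83.7 in DTP, 9.62, 5.40 and 0.337 in DTEP and 0.0422, 0 and 0.0484 in LR normalised read counts. DTP was above Control and all DTEP libraries were below both, with DTEP replicate 3 near LR. It rose in DTP (log2 change 1.50 with an SE of 0.54 and a limma adjusted p of 0.0335) and fell from DTP to DTEP (log2 change -4.19 with an SE of 0.54 and a limma adjusted p of 2.52e-05) and from DTEP to LR (log2 change -2.13 with an SE of 0.54 and a limma adjusted p of 0.0398). The rise lost its call under 9 of 24 alternatives, among them all 6 that left out a Control or a DTP library, and the highest adjusted p by limma was 0.14. The fall from DTEP to LR lost it under 14 of 24, among them every fit without a single library except that without DTEP replicate 3. The LR libraries held 2 reads in all, and the ratio of Control to LR was 872 (exact 95% interval from 241 to 7209, for counting error only).

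TP53RK (Entrez 112858, chr20:46684365-46689444), a kinase of the complex that modifies transfer RNA, had 46.2, 49.7 and 45.0 in Control, 44.5, 46.4 and 50.5 in DTP, 61.7, 62.9 and 61.8 in DTEP and 69.3, 72.8 and 50.2 in LR normalised read counts. The DTEP libraries were alike and above all DTP and Control libraries, and the LR libraries were above those of Control, with LR replicate 3 within the DTP range. It was the only member higher than Control in both DTEP (log2 change 0.40 with an SE of 0.14 and a limma adjusted p of 0.0328) and LR (log2 change 0.42 with an SE of 0.14 and a limma adjusted p of 0.0226). Both calls are near the threshold. That in DTEP was lost without any 1 Control library, without DTEP replicate 1 or 2, with median-of-ratios scaling and with DESeq2, and that in LR without Control replicate 1 or 3 or LR replicate 1 or 2 (adjusted p up to 0.115 and 0.0869, by limma or DESeq2). The rise from DTP to DTEP (log2 change 0.39, limma adjusted p 0.0291) no longer passed under 7 of 24 alternatives, median-of-ratios scaling among them. TP53RK overlaps SLC13A3, which fell from a mean of 16.6 in DTP to 0.658 in DTEP. DPM1, the catalytic subunit of dolichol-phosphate mannose synthase, MOCS3, of molybdenum cofactor synthesis, and B4GALT5, a galactosyltransferase of glycolipids, ended at 30.5%, 26.7% and 33.5% of Control.

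BCAS1, BCAS4, PFDN4 and FAM210B were the tested genes named for the amplicon or of other function. BCAS1 (Entrez 8537, chr20:53943541-54070594), a gene expressed in myelinating glia and first found in breast carcinoma, had 659, 705 and 766 in Control, 442, 429 and 477 in DTP, 46.2, 25.5 and 4.32 in DTEP and 3.51, 12.3 and 1.99 in LR normalised read counts. DTP lay below Control, all DTEP and LR libraries lay far below DTP, and DTEP replicate 3 was within the LR range. The lower DTP values did not pass against Control (log2 change -0.66, limma adjusted p 0.43) in the fit that shares 1 spread over all groups. Its larger fall came between DTP and DTEP (log2 change -4.58 with an SE of 0.67 and a limma adjusted p of 6.79e-05), and LR was at 0.837% of Control (log2 change -6.97 with an SE of 0.67 and a limma adjusted p of 2.43e-06). The change from DTEP to LR did not pass (log2 change -1.74, limma adjusted p 0.0964) and depended on which DTEP libraries entered. It was -2.65 without DTEP replicate 3 and 0.0841 without DTEP replicates 1 and 2. With single libraries left out its limma adjusted p ran from 0.00108 to 0.346. LR replicate 2 was the highest, and BCAS1 had the widest LR spread of the members (SD 1.12 on the log2 scale).

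BCAS4 (Entrez 55653, chr20:50794894-50882676), also first found in amplified breast carcinoma DNA, had 15.4, 17.3 and 15.8 in Control, 31.3, 30.7 and 24.0 in DTP, 4.50, 1.52 and 0.112 in DTEP and 0, 0 and 0.145 in LR normalised read counts. DTP lay above Control and DTEP below it, in a graded order of libraries. It fell from DTP to DTEP (log2 change -3.57 with an SE of 0.42 and a limma adjusted p of 1.11e-05), and 3 reads were left in LR, a ratio of Control to LR of 334 (exact 95% interval from 114 to 1625, for counting error only). PFDN4 (Entrez 5203, chr20:54208087-54219961), a subunit of the prefoldin chaperone, had 239, 234 and 231 in Control, 323, 367 and 339 in DTP, 78.7, 31.7 and 24.4 in DTEP and 12.4, 9.69 and 15.1 in LR normalised read counts. Its groups were separate at every step. PFDN4 fell from DTP to DTEP (log2 change -3.09 with an SE of 0.32 and a limma adjusted p of 4.39e-06) and from DTEP to LR (log2 change -1.62 with an SE of 0.32 and a limma adjusted p of 0.0181), the latter lost with the 6 libraries compared alone, without LR replicate 1 or 2, and without DTEP replicates 1 and 2. The limma adjusted p then reached 0.301.

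FAM210B (Entrez 116151, chr20:56358974-56368663), a mitochondrial protein gene next to AURKA, had 380.3, 367 and 362 in Control, 494, 532 and 552 in DTP, 331, 249 and 371 in DTEP and 450.3, 322 and 381 in LR normalised read counts. All DTP libraries were highest, and Control, DTEP and LR overlapped. It rose in DTP (log2 change 0.51 with an SE of 0.16 and a limma adjusted p of 0.021) and fell in DTEP (log2 change -0.75 with an SE of 0.16 and a limma adjusted p of 0.00157). Its LR mean was 104% of Control (log2 change 0.04, limma adjusted p 0.83), or -0.0768 on the log2 scale without LR replicate 1. The rise in DTP lost its call in 4 of the fits that left out a library, with a highest limma adjusted p of 0.0624.

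**Figure D4:**
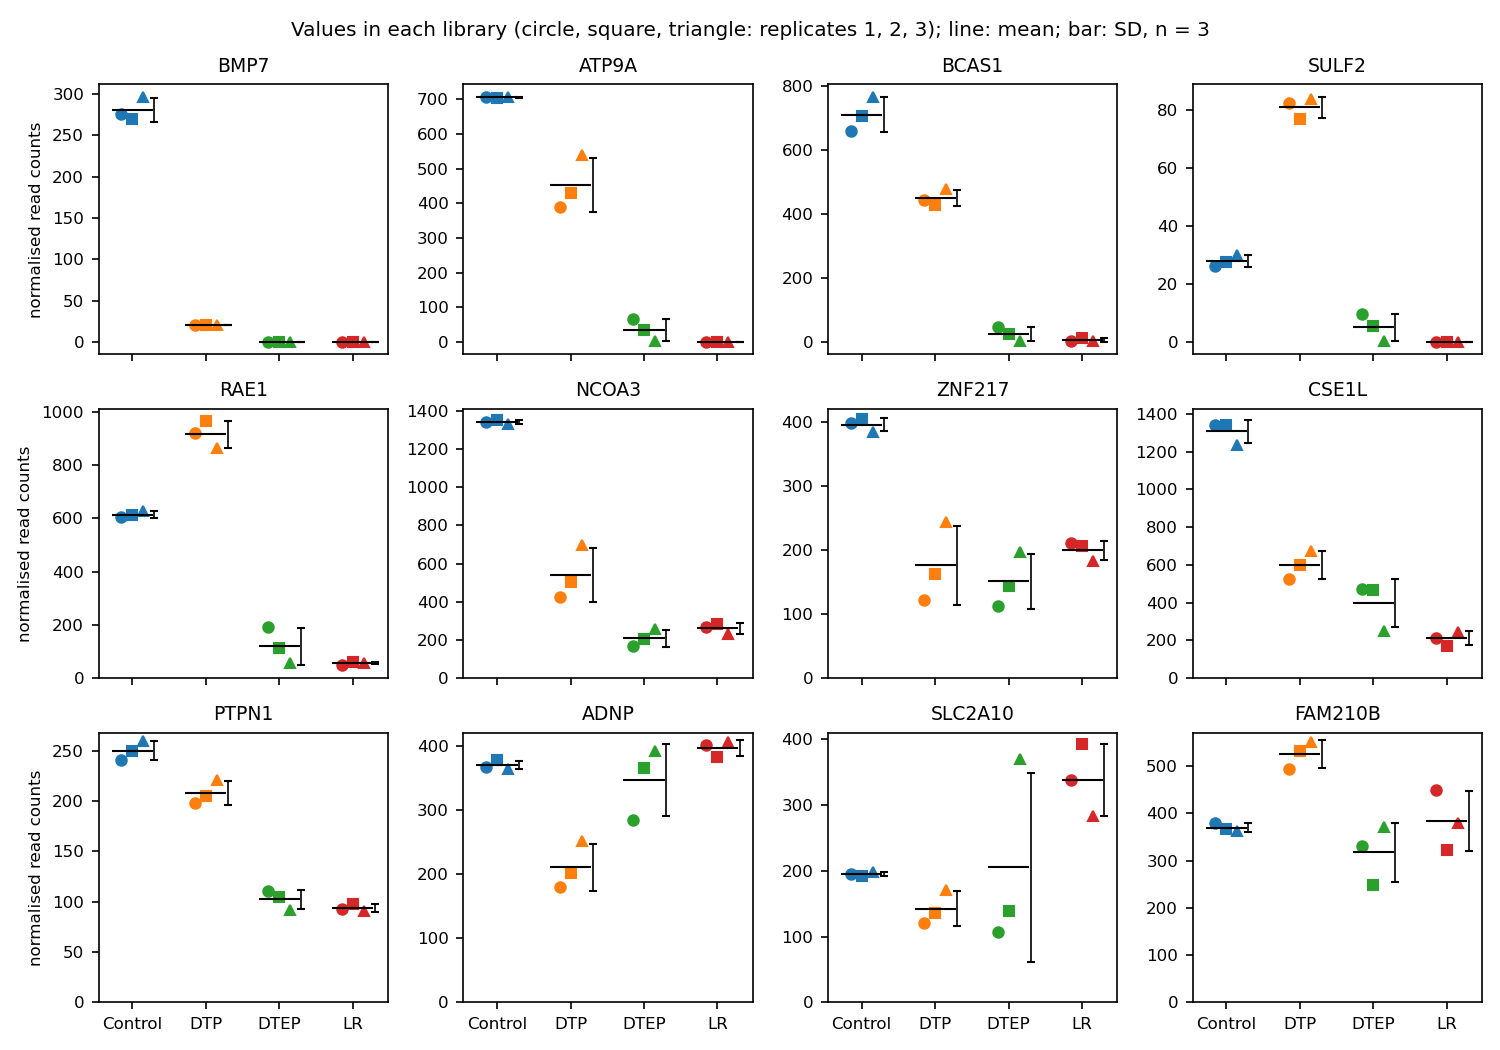
Normalised read counts on a linear axis from 0 are shown for 12 members in each library (circle, square and triangle for replicates 1, 2 and 3), with the mean as a line and the SD as a bar (n = 3). BMP7 is near 0 from DTEP on, ATP9A, BCAS1 and SULF2 reach near 0 only in DTEP replicate 3 and LR, and ADNP and SLC2A10 end at or above Control.

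Of the members nearly lost in LR, those with enough reads in DTP were graded in the DTEP libraries. Taking the members with a DTP mean of at least 5 whose LR mean was below 2% of it gave SULF2, BCAS4, ATP9A, BCAS1, DOK5 and BMP7. In DTEP replicates 1, 2 and 3 their median level was 13.4%, 6.17% and 0.404% of the DTP mean, and in LR it was 0.0782%. All 6 had replicate 1 above replicate 2 above replicate 3, as had 402 (95.0%) of the 423 genes of the whole table that met the same rule. The medians of the 423 were 12.4%, 4.81% and 0.632% in the DTEP libraries and 0.154% in LR. The numbers name libraries and carry no order in time. SALL4 and TSHZ2 were also below 1% of Control in LR, but their DTP means were below 5. In DTEP replicates 1, 2 and 3 SALL4 had 0.574, 0.494 and 0.0561 normalised read counts, the same order. TSHZ2 had 0.335, 0.494 and 0, which is not that order. Over the 39 tested members 21 (53.8%) had replicate 1 above 2 above 3, against 33.8% of all 13794 genes. Among the 39 tested members, DTEP replicate 3 was within the range of the LR libraries for 23, replicate 1 for 6 and replicate 2 for 8. For all 13794 genes the corresponding counts were 6993, 3020 and 3720.

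VIM, a marker of mesenchymal cells, was graded in the same way, with 10.7, 3.67 and 0.112 normalised read counts in DTEP replicates 1, 2 and 3 and no read in LR. It averaged 58.3 in Control and 90.1 in DTP. It was 1 of 5 fibroblast markers, and the others did not all follow it. COL1A1 was higher in DTEP and LR than in Control, COL1A2 had 1 read in each of 2 libraries and none in the rest, PDGFRB was at or near 0 throughout and FN1 averaged 6.87 in Control and 0.747 in LR, with 1.48, 1.07 and 0.112 in DTEP replicates 1, 2 and 3, the same order as VIM. The sum of the 5 ran from 116 to 127 normalised read counts over the Control libraries. In DTP it ran from 141 to 157, in DTEP from 92.0 to 126 and in LR from 99.6 to 131. The sum of 6 proliferation genes was 1431 to 1468 over the Control libraries. It was 95.0 to 105.0 in DTP, 1534 to 2207 over the DTEP libraries and 501 to 1110 over those of LR. The part of these differences in the members' values was not tested.

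**Figure D5:**
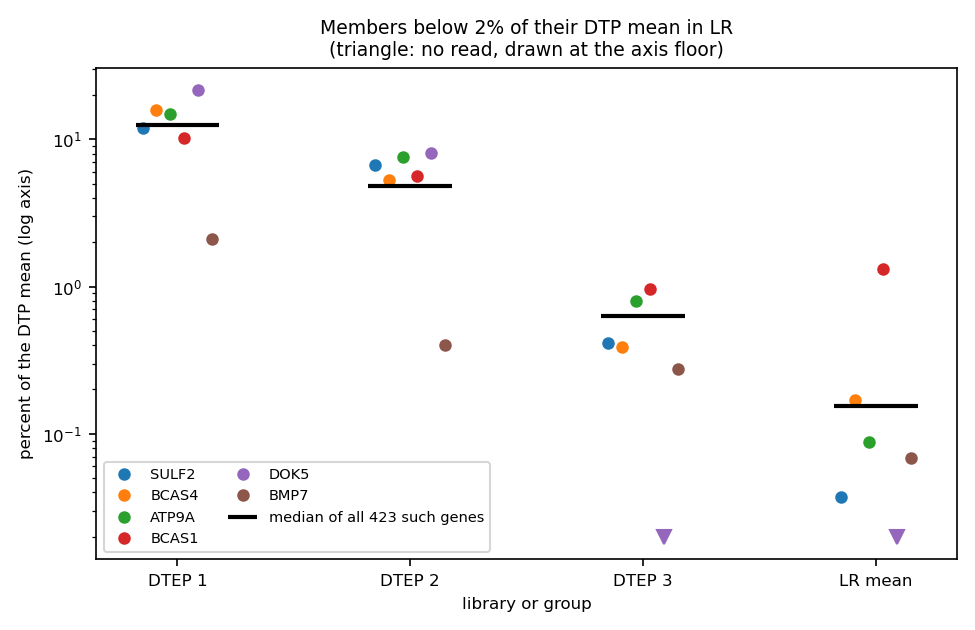
The level of 6 members, as a percentage of their DTP mean on a log axis, is given for each DTEP library and for the LR mean, with a bar for the median of all 423 genes below 2% in LR. The points step down from DTEP replicate 1 (median 13.4%) to replicate 3 (0.404%), and a triangle at the foot of the axis marks DOK5, which had no read in DTEP replicate 3 or in LR.

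RefSeq promoters (GRCh38.p14, the 250 bases before the start) were matched by Entrez identifier for 36 of the 48 members, of which 34 were tested. Missing from the table were CD40, EYA2, ZNFX1, PTGIS, PARD6B, SALL4, BCAS1, CYP24A1, CBLN4, BMP7, PCK1 and ZBP1. To show a pair of members nearly lost in LR beside a pair that did not pass against Control there, their promoters are printed 5′ to 3′ on the strand of the gene, with each CG dinucleotide in capitals. The first is from ATP9A (chr20:51768391-51768640, minus strand, 57 CG), the second from BCAS4 (chr20:50794644-50794893, plus strand, 12 CG), the next from ADNP (chr20:50931438-50931687, minus strand, 6 CG) and the last from FAM210B (chr20:56358724-56358973, plus strand, 30 CG).
ATP9A: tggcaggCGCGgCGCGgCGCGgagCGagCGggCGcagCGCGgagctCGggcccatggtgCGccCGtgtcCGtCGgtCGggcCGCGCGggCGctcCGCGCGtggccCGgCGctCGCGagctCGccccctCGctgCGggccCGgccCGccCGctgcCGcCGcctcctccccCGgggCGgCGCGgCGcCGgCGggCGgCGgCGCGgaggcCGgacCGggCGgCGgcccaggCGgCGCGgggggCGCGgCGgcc
BCAS4: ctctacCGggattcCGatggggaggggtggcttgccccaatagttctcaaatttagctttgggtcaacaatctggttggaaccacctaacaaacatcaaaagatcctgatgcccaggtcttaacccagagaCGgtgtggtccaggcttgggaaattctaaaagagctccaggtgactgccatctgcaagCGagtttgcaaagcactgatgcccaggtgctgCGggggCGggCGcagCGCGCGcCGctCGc
ADNP: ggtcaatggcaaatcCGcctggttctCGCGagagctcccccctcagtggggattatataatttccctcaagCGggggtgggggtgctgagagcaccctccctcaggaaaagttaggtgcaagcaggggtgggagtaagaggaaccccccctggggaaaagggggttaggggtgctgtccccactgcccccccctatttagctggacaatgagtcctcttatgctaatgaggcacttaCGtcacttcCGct
FAM210B: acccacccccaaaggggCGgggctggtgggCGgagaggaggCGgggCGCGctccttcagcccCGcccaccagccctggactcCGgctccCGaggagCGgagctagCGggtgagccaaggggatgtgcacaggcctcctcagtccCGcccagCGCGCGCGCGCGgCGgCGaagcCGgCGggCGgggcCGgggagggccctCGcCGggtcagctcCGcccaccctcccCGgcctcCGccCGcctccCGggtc

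Neither pair was alike in CG content. ATP9A had the highest number of CG among the 34 tested members, and ADNP and PMEPA1 shared the lowest. Over classes, the median was 24 CG in the 9 promoters of members below 10% of Control in LR, 24 in the 13 from 10% to 50% and 21 in the 12 at 50% or more. Over all 35114 promoters of the table it was 11. The letters GGGCGG (which hold a CG), on either strand, were in 22 of the 34 promoters, against 42.6% of all. CCAAT was in 4 of the 9, 5 of the 13 and 1 of the 12, against 32.0% of all, and TATAAA in 2 of the 34, against 10.7%. These are matches of letters and not sites.

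A total of 3 pairs of members start back to back within 1000 bases. STAU1 and DDX27 are separated by 120 bases, ZNFX1 and ZFAS1 by 120 and DPM1 and MOCS3 by 253, and the shared stretch of the first pair (chr20:49219296-49219415, plus strand) and 250 bases of the last (chr20:50958568-50958817, plus strand) are printed in the direction of DDX27 and of MOCS3, with CG in capitals.
STAU1-DDX27: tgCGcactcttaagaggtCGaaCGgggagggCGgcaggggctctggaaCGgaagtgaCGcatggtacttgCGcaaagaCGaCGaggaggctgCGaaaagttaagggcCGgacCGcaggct
DPM1-MOCS3: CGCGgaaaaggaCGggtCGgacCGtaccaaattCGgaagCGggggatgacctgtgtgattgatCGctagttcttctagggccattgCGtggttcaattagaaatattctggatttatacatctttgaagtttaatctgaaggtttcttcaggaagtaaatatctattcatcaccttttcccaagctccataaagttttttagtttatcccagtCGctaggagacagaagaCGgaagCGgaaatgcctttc

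Partners did not always move as one. STAU1 changed by -0.44 and DDX27 by 0.50 on the log2 scale in DTP against Control, of which only the former passed (limma adjusted p 0.0078 and 0.0632), and by -1.62 and -1.47 in LR against Control. ZNFX1 changed by -0.15 and ZFAS1 by 1.09 in DTP against Control, and by 0.89 and -0.40 from DTEP to LR. DPM1 and MOCS3 were closer, with 0.30 and 0.23 in DTP against Control, -1.61 and -1.69 from DTP to DTEP and -1.69 and -1.82 in LR against Control. The differences within pairs were not tested.

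The 9 members below the filter had few reads or none from the start. CD40, a receptor of the tumour necrosis factor family, and CBLN4, a secreted synaptic protein, had no read in any library. CYP24A1, the enzyme that breaks down vitamin D and a gene by which the amplicon is known, had no read in Control, 0.0522, 0.0987 and 0 normalised read counts in DTP and none later. A library without a read allows up to 3 reads, 0.124 to 0.173 normalised read counts at these depths, for counting error only. PTGIS (prostacyclin synthase), SPO11 (of meiotic recombination), PCK1 (of gluconeogenesis) and ZBP1 (a sensor of Z-form nucleic acids) had at most 0.346 in a library. EYA2, a transcription cofactor, had 0.736, 0.652 and 0.745 in Control and 0.157 or less in each later library. NFATC2, a calcium-regulated transcription factor, had 1.38, 0.761 and 1.30 in Control, 0.313, 0.247 and 0.979 in DTP, 0.0957 or less in DTEP and no read in LR.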

How the data were processed

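Polyadenylated RNA of 12 BT474 libraries was sequenced. Per the study's methods, the authors used Rsubread for alignment to hg38 and for assignment to RefSeq genes, at defaults that ignore strand. The deposited table holds a normalised signal per gene and library. Whole reads could be recovered from them: divided by the step of its library, each of the 199680 nonzero values was a whole number (100% within 1e-06). The scaling was to the library size in units of 1e+06 reads, times a TMM factor that edgeR 4.0.16 recomputed to a relative difference of 1e-15. Such values are called normalised read counts here. Rows of the table without a symbol (1016) were kept in the fit.

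Groups and replicate numbers came from the sample titles. The members and gene lists were chosen with earlier results of these data known. limma 3.58.1 in R 4.3.3 was fitted to log2(value + 1) of all 12 libraries, without covariates and with a trend of the variance on expression, over the 13794 genes that reached 1 in 3 or more libraries. Tests were two-sided, with Benjamini-Hochberg adjustment over all genes of each of 5 comparisons. A member passed at an adjusted p below 0.05 and was called with an absolute log2 change above 2 besides, a threshold the study used. Log2 changes on this scale understate those of low genes. Exact 95% intervals and limits of 3 reads cover counting error only. RefSeq coordinates and promoters were those of GRCh38.p14.

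Named with all libraries were the 5 highest and 5 lowest log2 changes per successive transition among passing members whose groups did not overlap, ZNF217, NCOA3, BCAS1, CYP24A1, PREX1, PTPN1, CSE1L, CSTF1 and FAM210B as known genes of the region, and those with the widest spread. BCAS4, PMEPA1, RAE1, RBM38 and SLC2A10 were added after their values were seen. Alternatives were pseudocounts of 0.1 and 0.5, other filters, no trend, the 6 libraries compared alone, other scalings, a block on the replicate number, edgeR and DESeq2 1.42.0 on recovered reads, a log2 threshold of 1, members without overlapping genes, each library left out, and, chosen after seeing the data, DTEP replicates 1 and 2 left out. The fits were tested on simulated data.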

Additional observations from a re-analysis of the deposited data

How the results depend on the processing

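The alternatives were run on the counts and medians of members and on the named members. Of the 5 medians of log2 changes none turned positive, and that for LR against DTEP was 0 without DTEP replicates 1 and 2. The counts for LR against DTEP varied most. Members with a few reads per group are limited by depth, and all others by n = 3 libraries. The causes of the changes were not tested.

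Without the filter on low values the member medians were -0.11, -1.06 and -0.051 for the successive transitions, and -1.18 for DTEP and -1.08 for LR against Control, and in LR against DTEP 2 members passed as lower and 1 was called. A filter at a mean of 5 gave medians of -0.0770 in DTP against Control and -1.40 in LR against Control. TMM over the tested genes gave -0.10 and -1.38 for the same, and edgeR -0.087 and -1.38. Median-of-ratios scaling gave -0.12 in DTP against Control and -1.42 in DTEP against DTP, DESeq2 -0.088 and -1.49, and with both 1 member passed as higher in DTEP against DTP and 0 in DTEP against Control. In LR against DTEP, edgeR passed 10 lower members and called 6, and DESeq2 passed 12 and called 8. With the 6 libraries compared alone, 15 members were higher from Control to DTP, 1 from DTP to DTEP, 2 from Control to LR, and 0 passed in either direction or were called in LR against DTEP. A log2 threshold of 1 called 3 higher and 7 lower members in DTP against Control, 25 lower in DTEP against DTP, 4 in LR against DTEP, 26 in DTEP against Control and 25 in LR against Control, where 9.24%, 15.8%, 19.5%, 2.5%, 16.4% and 19.6% of all genes were, in that order. Without members overlapping another gene, 7 were lower and 0 called in DTP against Control, 0 were higher in DTEP against DTP, in DTEP against Control and in LR against Control, and the medians against Control were -1.56 in DTEP and -1.62 in LR.

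Without DTEP replicates 1 and 2, 14 members were higher from Control to DTP, 4 from DTP to DTEP (median -1.44), 2 in LR against Control and 0 in LR against DTEP, where 1 was lower, 0 were called and the median was 0. In that fit ZNF217 and ARFGEF2 turned to 0.22 and 0.37 in DTEP against DTP, and BCAS1 and PTPN1 to 0.0841 and 0.0323 in LR against DTEP. With 1 library left out, ZNF217 ranged from -0.43 to 0.0573 in DTEP against DTP (highest without DTP replicate 3), ARFGEF2 from -0.40 to 0.15 there (0.15 without DTP replicate 3, 0.12 without DTEP replicate 1) and FAM210B from -0.0768 (without LR replicate 1) to 0.16 in LR against Control.

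With single libraries left out, higher members ranged from 4 (without Control replicate 2) to 12 (without DTEP replicate 1, and 11 without DTEP replicate 3) in DTP against Control, from 1 (without DTP replicate 1 or 2 or DTEP replicate 2) to 4 (without DTP replicate 3 or DTEP replicate 1) in DTEP against DTP, from 1 to 9 in LR against DTEP, from 0 to 1 in DTEP against Control and from 0 to 2 in LR against Control. TP53RK lost its call against Control in DTEP without any Control library, or without DTEP replicate 1 or 2. In LR against DTEP, lower members ranged from 1 to 15 and called ones from 0 to 4, with the upper end of each without DTEP replicate 3 and the lower end of each without DTEP replicate 2. The medians ranged from -0.23 to -0.15 from Control to DTP, -1.34 to -1.25 from DTP to DTEP, -0.27 to -0.0619 in LR against DTEP, -1.44 to -1.34 in DTEP against Control and -1.50 to -1.39 in LR against Control.

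The replicate numbers were also used as a block. Of 18 pairs of same-numbered libraries of different groups, 2 had deviations correlated above 0.1 (r from -0.44 to 0.36). By the same measure 2 of the 12 libraries were most like those of their own number. The deviations are taken from the mean of each small group and so depend on each other. Whether same-numbered libraries share an origin therefore cannot be told from them. With the replicate block 3 members passed as lower in LR against DTEP, in place of 5, with CSE1L and RBM38 lost. PMEPA1 was also lost in DTEP against Control, and no other call of a member on the adjusted p was.

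Over all genes, those past both thresholds as higher and lower in DTP against Control numbered 140 and 538 by limma, 487 and 783 by edgeR and 481 and 790 by DESeq2. The counts were 1122 and 969, 1550 and 1738, and 1441 and 1813 in DTEP against DTP, and 31 and 63, 71 and 510, and 75 and 624 in LR against DTEP. Against Control they were 611 and 855, 1009 and 1359, and 933 and 1420 in DTEP, and 694 and 1076, 1128 and 1645, and 1037 and 1723 in LR. On the adjusted p alone, limma, edgeR and DESeq2 passed 419, 522 and 1010.0 genes as higher and 595, 1181 and 2083 as lower in LR against DTEP.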

Other observations

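Several genes that overlap a member on the map were read out beside it, and their values follow with no test. CEBPB-AS1 averaged 4.18 at day 0, then 15.6 in DTP, 2.22 in DTEP and 2.58 in LR (normalised read counts), and was highest in the group where CEBPB was highest. NKILA, which overlaps PMEPA1, averaged 12.05, 16.01, 5.73 and 5.12. SLC13A3, which overlaps TP53RK, averaged 8.89, 16.6, 0.658 and 1.17 while TP53RK was higher in DTEP and LR. ADNP-AS1 averaged 2.32, 4.42, 0.981 and 1.06, with its highest level in DTP, where ADNP was lowest. Counting without strand cannot tell the reads of each of these pairs apart where they overlap.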
